A study of Microtus ochrogaster with 40 samples.

Results

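Mature oligodendrocytes of the nucleus accumbens were described in single-nucleus RNA sequencing of 40 prairie voles (Microtus ochrogaster). Of 185995 kept nuclei, 11369 (6.11%) were taken as mature oligodendrocytes. A nucleus was taken when it held at least 2 UMIs (unique molecular identifiers, each standing for 1 captured RNA molecule) of Mog, Mag, Cldn11, Mal and Aspa, with at least 2 of these 5 genes detected, and no UMI of Pdgfra, Cspg4, Gja1, Slc17a7, Drd1a or Drd2. The first 5 genes belong to myelinating cells, and the other 6 mark oligodendrocyte precursors, astrocytes and neurons. Because the nuclei were selected on their own counts, the levels of these 11 genes are not a finding, and levels against other nuclei are given as a description with no test.

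Each library came from the nucleus accumbens, a forebrain region of reward and social attachment, of 1 animal. All animals had lived with a partner unknown to them at the start for 16 days. The 4 groups were 11 females with a male partner (female mate), 8 females with a female partner (female peer), 11 males with a female partner (male mate) and 10 males with a male partner (male peer). The labels used here give no ages and do not say which animals lived together, so partners that are both in the data could not be linked.

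Oligodendrocytes wrap axons of the central nervous system in myelin, a stack of membrane that speeds conduction, and they pass metabolites to the axon. They arise from precursors that carry Pdgfra and Cspg4, pass through a short stage marked by genes such as Enpp6 and Bcas1, and then make large amounts of myelin proteins such as Mbp. In rodents, mature cells further differ in genes such as Ptgds, Opalin, Apod and Klk6.

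The mature oligodendrocytes had a median of 673 UMIs and 534 genes per nucleus, against 1555 UMIs over all kept nuclei. The lowest 5% of them had at most 512 UMIs, close to the minimum of 500 that a nucleus needed, so shallower oligodendrocytes were not counted. Together they held 9442806 UMIs, or 2.71% of those in kept nuclei, with 38290 to 438146 per animal. Between 52 (male peer 1) and 578 (male peer 8) nuclei came from each animal. The library of male mate 2 stood apart: its barcodes reached down to 206 UMIs, its share of mature oligodendrocytes was 1.19%, and 23.3% of those were called doublets (2 nuclei in 1 droplet), against 6.33% over all animals. Barcodes recurred between libraries, but 204 of the 11369 nuclei (1.79%) had a barcode that was also a mature oligodendrocyte elsewhere, and no pair of libraries shared over 1.53% of the smaller one.

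Most of the nuclei met the conditions with room to spare. The median nucleus held 12 UMIs of the 5 markers, 5227 nuclei had 4 of the markers detected and 2791 had all 5. Just inside the limit were 231 nuclei with exactly 2 marker UMIs. Just outside it were 2320 nuclei with 1 marker UMI and 533 with more UMIs of a single marker. A further 3495 met the marker condition but held a UMI of the 6 excluded genes. They had a median of 1129 UMIs, above the 673 of the nuclei taken, so this condition left out deeper nuclei.

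Myelin genes that the selection did not use were high. All 18 measured genes of the myelin sheath and cytoskeleton list were higher in these nuclei than in all other nuclei of the same animal, in 40 of 40 animals. Of all 4631 genes with at least 50 CPM (a gene's UMIs per 1000000 UMIs summed over an animal's nuclei of that class), 14.9% were higher in every animal, and of all 19119 genes outside the selection, 3.75%. Mbp, which compacts the membrane, stood at 10304 ± 1973 CPM (SD, n = 40 animals), against 169 CPM in oligodendrocyte precursors and 146 CPM in all other nuclei. Gpm6b and Ppp1r14a followed in that list at 2107 ± 332 and 2057 ± 373 CPM. In male mate 2, Mbp lay below the range of the other animals, at 3137 CPM. The markers of the selection stood at 6113 CPM for Cldn11, a tight junction protein of myelin, 3444 for Mal, 3387 for Mag, 2277 for Mog and 643 for Aspa.

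Outside the selection, cytoskeletal and membrane genes took large shares of UMIs beside Ptgds and Mbp. Another gene of the myelin sheath list stood above both and is not reported here. Tubb4a, a tubulin of brain, stood at 5781 ± 1765 CPM against 347 in other nuclei, and Scd2, a fatty acid desaturase, at 3491 ± 675 against 452. App, the amyloid precursor, stood at 5291 ± 952 against 2527 CPM and Abca2, a lipid transporter, at 2319 ± 357 against 221. The unnamed gene ENSMOCG00000006609 stood at 3172 ± 861 CPM. Actb, at 2132 CPM, differed from other nuclei by only 0.43 on the log2 scale. The log2 ratio to other nuclei was large for Ppp1r14a, at 6.21, Mbp at 6.14, Myrf at 6.12 and Apod at 6.04. Galnt6, Tmem88b and Sh3tc2 were less abundant but also had large ratios, of 5.58, 5.54 and 5.46.

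Genes of myelin lipids were also high. Of the 11 with at least 50 CPM (12 measured), 9 were higher than in the other nuclei in every animal, beside 14.9% of all genes of that level. Ugt8a, which makes galactosylceramide, stood at 2400 ± 469 CPM against 406 in precursors, Enpp2, which makes lysophosphatidic acid, at 2187 ± 490 against 662, and Fa2h, which hydroxylates myelin fatty acids, at 1023 ± 206 against 282. Elovl7, a fatty acid elongase, stood at 474 ± 109 CPM. Of the cholesterol synthesis genes, 10 of 17 measured reached 50 CPM, and 4 of these 10 were higher in every animal. Cyp51, a sterol demethylase, stood at 499 ± 104 CPM, above the 219 CPM of other nuclei, whereas Sqle, which oxidises squalene and was lower in all 40 animals, stood at 113 ± 26.5 against 185. Insig1 and Srebf2, regulators of the pathway, stood at 193 ± 48.3 and 185 ± 34.1 CPM.

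Genes of axon contact and of ion and metabolite transport formed a further layer. In the axon contact list 10 of 13 measured genes were higher than in other nuclei in all 40 animals. Cntn2 stood at 1924 ± 395 CPM, Omg at 944 ± 227, Lgi3 at 892 ± 187 and Dock10 at 856 ± 153. In the list of gap junctions, channels and transport 9 of 10 were higher in all 40. Of all 19119 genes, 3.75% were. Among genes with at least 50 CPM the counts were 10 of 12 and 9 of 9, beside 14.9% of all genes of that level. Slc12a2, a chloride cotransporter, stood at 1016 ± 186 CPM, Kcna6 at 762 ± 160, Ttyh2 at 608 ± 130 and the potassium channel Kcnj10 at 596 ± 138. The connexin Gjb1, a gap junction protein of oligodendrocytes, reached 280 ± 71.5 CPM, against 3.39 CPM in other nuclei.

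Receptors were uneven. Gpr37 stood at 1930 ± 408 CPM, Lpar1, a receptor for lysophosphatidic acid, at 848 ± 181, and S1pr5, a receptor for sphingosine 1-phosphate, at 574 ± 125. Each was at most 32.4 CPM in other nuclei. Erbb3, a neuregulin receptor, stood at 296 ± 87.1 CPM against 2.67, while Erbb2 stood at 0.593 CPM. The insulin receptor Insr, at 296 ± 72.3 CPM, was closer to the 178 CPM of other nuclei. Receptors tied to pair bonding in voles were near the floor: OXTR, the oxytocin receptor, stood at 0.500 CPM and Esr1, an estrogen receptor, at 0.219 CPM. Nr3c1 and Avpr1a were not analysed here.

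Of 13 transcription factors of the lineage, 4 were higher than in precursors in all 40 animals and 1 was lower in all. The other 8 were neither. Of all 19119 genes, 2.12% were higher in all and 2.18% lower. Of the 11 factors with at least 50 CPM, 4 were higher and 1 was lower, beside 8.55% and 3.50% of all genes of that level. Myrf, which drives myelin genes, stood at 1493 ± 244 CPM against 87.0 in precursors, and Nkx6-2 at 325 ± 75.9 against 5.73. Zeb2 and Sox8 stood at 833 ± 139 and 432 ± 105 CPM. Sox10, present through the whole lineage, was level in both, at 466 ± 117 against 457 CPM, and was the higher in mature cells in 20 of 40 animals. Olig1 and Olig2 were lower than in precursors, at 263 ± 81.6 against 777 CPM and 252 ± 64.7 against 642 CPM. Genes of the precursors were low: Ptprz1 stood at 33.2 CPM against 3777 and Tnr at 57.1 against 801. All 7 precursor genes that did not choose the mature oligodendrocytes were lower in every animal, beside 2.18% of all genes. Of these 7, Ptprz1 and Lhfpl3 were among the markers that chose the precursors, so their direction was largely set by that choice. Gpr17, a gene of the committed precursor, stood at 94.2 ± 99.9 CPM against 2341.

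Markers of other cells were present at a low level. The neuron list summed to a median of 2196 CPM, from 741 (female peer 3) to 6424 (male mate 2), and 11 of its 15 genes were lower than in other nuclei in every animal, beside 10.1% of all 19119 genes. After every nucleus was thinned to 500 UMIs, Snap25, a neuronal synaptic gene, had a UMI in 13.3% of mature oligodendrocytes, in 15.2% of microglia and in 51.8% of spiny neurons. Pooled over animals, the neuron list summed to 8346 CPM in the 720 called doublets, which are kept in these levels. In the 10649 nuclei not called it summed to 1664 CPM. The source of the neuronal RNA was not tested. Of the other lists, Slc1a2 of astrocytes stood at 155 CPM against 12135 in astrocytes, and Ctss of microglia at 70.0 against 8425 in microglia. The highest gene of the astrocyte list stood at 357 CPM. Of 10 astrocyte genes, 2 were lower than in all other nuclei in every animal, beside the same 10.1%. Of 11 microglia genes and of 8 vascular genes, 0 were. Pmp2, a Schwann cell gene, stood at 7.98 CPM. Mitochondrial genes took 0.873% of the UMIs, against 0.386% to 0.571% in the 4 comparison classes.

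**Figure D1:**
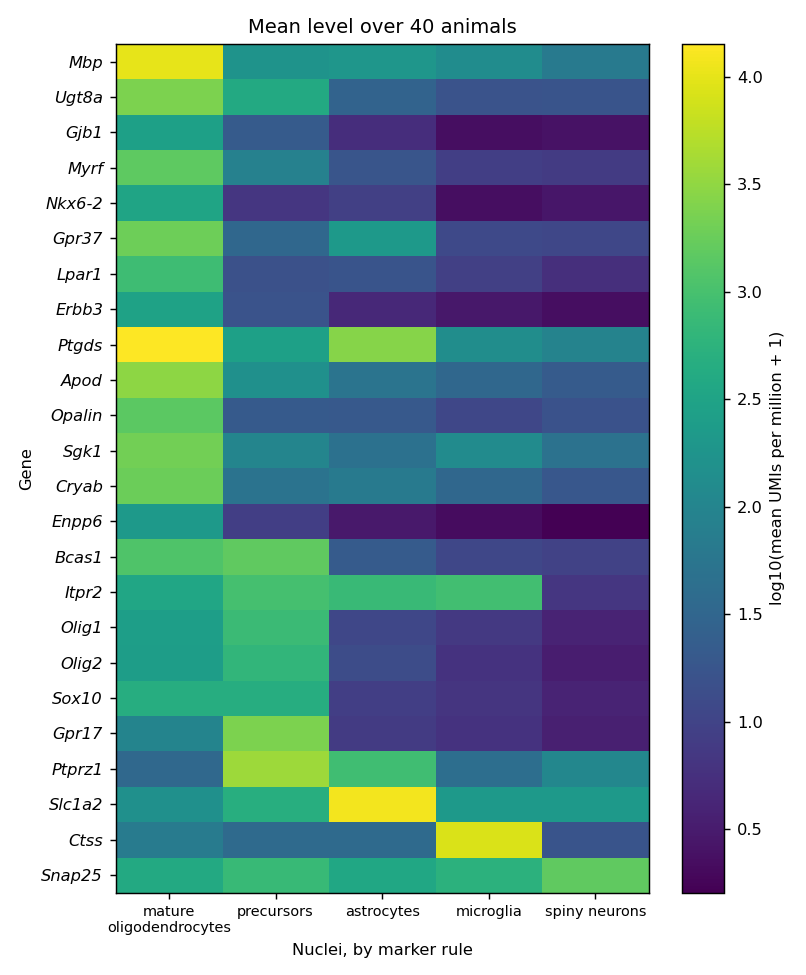
Mean level over 40 animals of 24 genes, as log10 of CPM plus 1 (colour), in mature oligodendrocytes and 4 comparison classes of nuclei (columns). Mbp reaches 10304 CPM in mature oligodendrocytes, while Gpr17 and Ptprz1 are highest in precursors. Ptprz1 was among the markers that chose the precursors.

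Within the mature oligodendrocytes, Ptgds and Opalin were common. Ptgds, a prostaglandin D synthase, took 14192 ± 5426 CPM. On nuclei thinned to 500 UMIs it had a UMI in 90.9% of mature oligodendrocytes and in 6.36% of microglia. Opalin, a membrane protein of myelinating cells, had one in 47.7% against 0.589%, and Apod, a lipid carrier, in 69.0% against 1.51%. None of the 11369 mature oligodendrocytes held a UMI of Klk6, which allows up to 0.0264% of nuclei with a detected UMI (3 counts, counting error only) and sets no limit on nuclei that express the gene. Klk6 reached at most 0.145 CPM in the comparison classes, and whether the vole gene model covers its reads was not tested, so the 0 may not reflect its expression. Il33, another gene of a rodent subtype, stood at 1.97 CPM. Qdpr, which recycles tetrahydrobiopterin, stood at 1717 ± 462 CPM. Car2, a carbonic anhydrase, stood at 293 ± 161 CPM. Ptgds was also present in astrocytes, at 2720 CPM, and over the animals its level in mature oligodendrocytes had rho = 0.643 with that in astrocytes and 0.576 with that in spiny neurons of the same libraries.

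Of 12 measured genes of differentiating oligodendrocytes, 1 was higher than in precursors in all 40 animals and 4 were lower in all, beside 2.12% and 2.18% of all 19119 genes. Of the 6 with at least 50 CPM, 1 was higher and 2 were lower, beside 8.55% and 3.50% of all genes of that level. Bcas1 stood at 1173 ± 244 CPM against 1542 in precursors, and Itpr2, a calcium channel of the endoplasmic reticulum, at 343 ± 121 against 962. The gene higher in every animal was Enpp6, at 219 ± 85.9 against 7.77 CPM.

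A subset held Enpp6, a choline phosphodiesterase of newly formed oligodendrocytes. It had a UMI in 8.25% of thinned mature oligodendrocytes, against 0.0943% in microglia and 0.268% in precursors, with 2.13% (female peer 7) to 16.3% (female peer 6) between animals. Among nuclei that were not called doublets, the 894 with an Enpp6 UMI held Ptgds less often than the 9755 without, at 80.2% against 93.0%. The same direction was seen in 37 of the 39 animals with at least 5 such nuclei. Opalin was found in 33.3% against 50.3%, also lower in 37 of 39 animals. Cd9 and Qdpr were lower too, at 34.1% against 47.3% and 42.6% against 55.2%.

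Other genes were more frequent beside Enpp6. Tcf7l2, a transcription factor of differentiating oligodendrocytes, was found in 9.40% against 2.71%, higher in 32 of 39 animals. Pooled over animals, Pik3r3, a regulatory subunit of PI3 kinase, was found in 5.82% against 1.16%, but it was higher in 26 animals and lower in 11. Dct was found in 5.82% against 1.15%, higher in 24 animals and lower in 13. Fyn, a kinase of myelination, was found in 4.14% against 1.68%, higher in 23 animals and lower in 15. Hapln2, which builds the matrix at the node of Ranvier, was found in 64.2% against 48.2%, higher in 30 animals and lower in 9. The neuronal gene Snap25 differed little, at 10.7% against 12.1%. These splits were chosen after the values were seen and nuclei of an animal share its library, so no test is given.

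**Figure D2:**
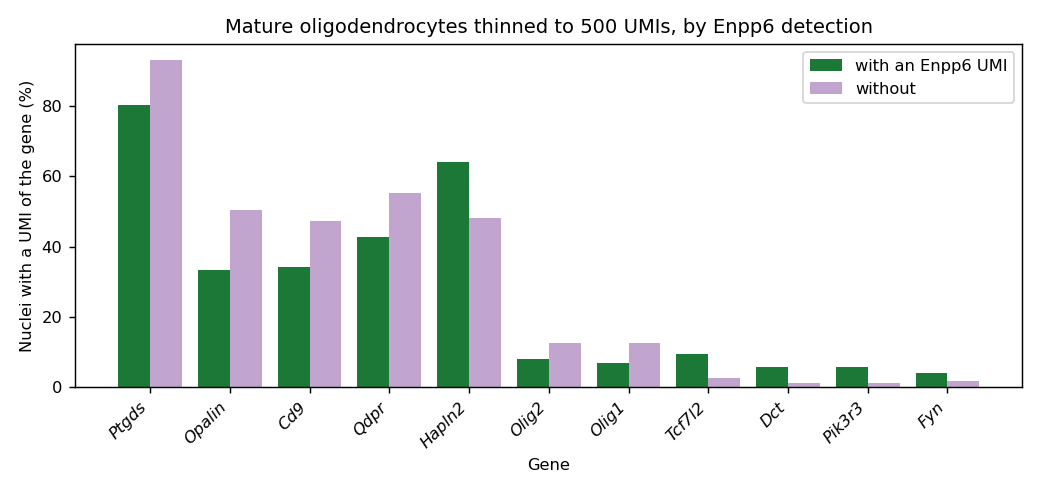
Percent of mature oligodendrocytes, each thinned to 500 UMIs and not called a doublet, with a UMI of each gene (bars), for the 894 with and the 9755 without an Enpp6 UMI, pooled over animals. Ptgds and Opalin bars are lower, and Tcf7l2, Dct, Pik3r3 and Fyn bars higher, beside Enpp6.

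Nuclei with and without a Ptgds UMI also differed in other genes. Opalin was found in 51.4% of the 9794 nuclei with Ptgds and in 20.4% of the 855 without, higher in 40 of 40 animals. Rras2, a small GTPase, ran the other way, at 1.04% against 6.43%, lower in 30 animals and higher in 9. The splits by Enpp6 and by Ptgds did not run alike in every gene. Bcas1 was more frequent beside Enpp6, at 47.8% against 41.8%, but less frequent without Ptgds, at 35.9% against 42.9%. Mbp was found in 99.3% of nuclei with Enpp6 and in 84.3% of those without Ptgds, and Apod in 73.8% and 49.9%. The nuclei without Ptgds also held neuronal genes more often, with Penk in 10.9% against 5.95% and Gad2 in 7.60% against 3.96%. Penk was so in 24 animals and the reverse in 15, Gad2 in 25 and 15, and the part of this in the split was not tested.

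Whether the partner's sex altered the abundance of mature oligodendrocytes was asked first. The share of kept nuclei was 3.75%, 5.68% and 10.5% as the lowest, median and highest of the female mate animals. It was 4.66%, 6.91% and 9.38% in female peer, 1.19%, 5.77% and 10.4% in male mate, and 2.83%, 6.75% and 10.1% in male peer animals. The 4 groups overlapped over most of their range. Mates had 5.98% ± 2.22 (SD, n = 22) and peers 6.67% ± 2.36 (SD, n = 18), a mean difference within sex of -0.727 percentage points (permutation p = 0.320, adjusted 0.896 over 30 tests). Females and males differed by 0.374 points (permutation p = 0.616, adjusted 0.999), or 0.136 without male mate 2 and 0.181 without male peer 1. Neither difference passed its test. Both were smaller than the SD between animals, which sets no limit on a small difference in means.

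The number of mature oligodendrocytes per precursor, on a log2 scale, averaged 1.18 ± 0.67 in mates and 1.31 ± 0.67 in peers (permutation p = 0.505, adjusted 0.999). Within females it was 1.02 in mates and 1.46 in peers (exact permutation p = 0.0841). Within males it was 1.34 and 1.18 (exact permutation p = 0.638), and the interaction had a permutation p of 0.153, adjusted 0.658.

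**Figure D3:**
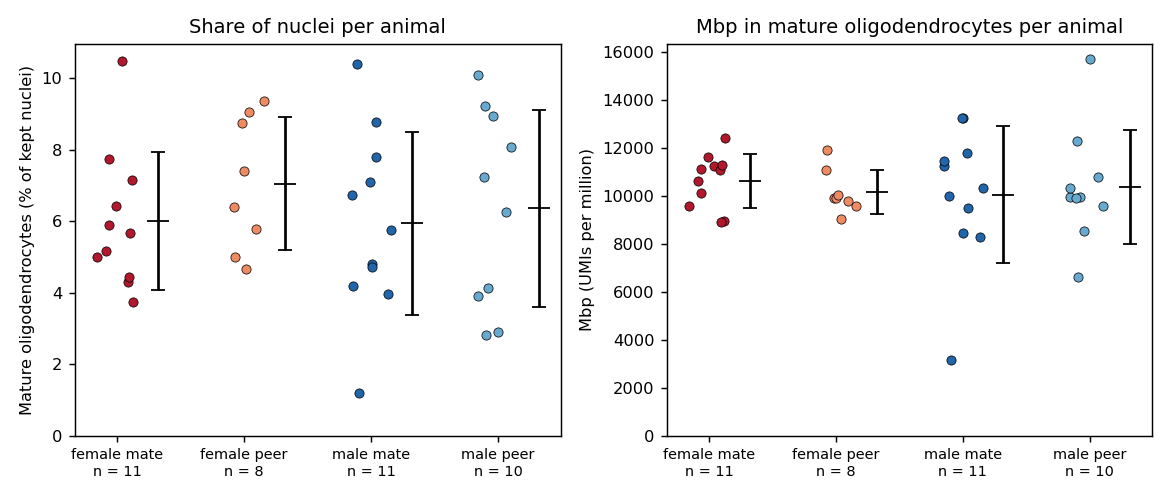
Left, mature oligodendrocytes as a percent of kept nuclei, and right, Mbp in CPM, for each animal (points) by group, with the group mean and SD (black bars). The groups overlap in both, and male mate 2 is the low point at 1.19% and 3137 CPM.

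The share was also set against the UMIs per kept nucleus. Over the 40 animals it correlated with the median UMIs of kept nuclei at r = 0.428 (permutation p = 0.00517, adjusted 0.0103 over 2 relations) and rho = 0.315 (permutation p = 0.0481, adjusted 0.0743). Without male mate 2 and female peer 1, the animals farthest from the median of this measure, r was lower, at 0.271, with no test. Within the groups r ran from -0.401 (female mate) to 0.871 (male mate), so the relation does not hold within every group. The share had r = -0.0437 with the share of precursors (permutation p = 0.789, adjusted 0.789) and rho = -0.284 (permutation p = 0.0743, adjusted 0.0743). Without the same animals r was -0.452, and within the groups it ran from -0.437 (female mate) to 0.336 (female peer). Once each nucleus was thinned to 500 UMIs, the difference between mates and peers was -0.772 points.

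Ptgds gave the lowest p of these tests. On thinned nuclei it had a UMI in 87.7% ± 7.95 of mature oligodendrocytes of mates and 92.6% ± 5.30 of peers, a difference of -4.97 points (permutation p = 0.0243), which did not pass adjustment over the 30 tests (0.616). Over the 40 animals this percentage had rho = 0.315 with the running number of the labels. That number averaged 17.3 in mates and 24.4 in peers, and the rho was 0.0774 within mates and 0.472 within peers. With the summed neuron list, which was higher in mates, the percentage had rho = -0.423. This was -0.432 within mates and -0.218 within peers. Within sex and blocks of 10 label numbers the difference was -4.10 points (33 animals, permutation p = 0.0936). The part of the neuron list in it was not tested. Opalin was found in 43.0% ± 13.0 and 49.3% ± 8.98 (permutation p = 0.0852, adjusted 0.616). Enpp6 was found in 7.67% ± 2.79 and 8.70% ± 4.19 (permutation p = 0.359, adjusted 0.896), and Bcas1 in 40.6% ± 8.21 and 42.2% ± 5.17 (permutation p = 0.500, adjusted 0.999).

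Gene by gene, no difference between mates and peers passed the test in mature oligodendrocytes. UMIs were summed per animal and 6008 genes were tested with edgeR's quasi-likelihood test. At an adjusted p under 0.05, 0 genes (0%) were called, 402 had an unadjusted p under 0.05, and DESeq2 also called 0. The 3 genes with the lowest p were Fcho2, an endocytosis gene, Ncam2, an adhesion molecule, and Mcf2l, an exchange factor for small GTPases. Fcho2 had a median of 57.2 CPM in mates (37.3 to 85.9) and 78.3 CPM in peers (52.4 to 101). On the log2 scale mates minus peers was -0.43 ± 0.10 (SE), with an edgeR adjusted p of 0.399, and 19 of 22 mates lay below the mean of the peers. Ncam2 had 70.9 CPM (38.6 to 105) and 100 CPM (42.7 to 133), or -0.50 ± 0.12 (SE) on the log2 scale at the same adjusted p by edgeR, 0.399. Mcf2l had 44.7 CPM (23.3 to 224) and 21.4 CPM (0 to 62.6), or 0.96 ± 0.24 (SE), again at 0.399. In all 3 the ranges overlapped, and Mcf2l stood at 324 CPM in the other nuclei, above its level in mature oligodendrocytes.

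The fixed lists likewise held 0 called genes for pairing. For the 18 tested myelin sheath genes the median log2 fold change of mates over peers was -0.12, from -0.30 to 0.03, beside 0.00 over all genes tested. It was -0.12 for 11 myelin lipid genes, -0.13 for 15 cholesterol genes, -0.20 for 9 channel and transport genes and -0.07 for 12 transcription factors. Olig2 gave the lowest unadjusted p of the transcription factors, at a log2 fold change of -0.39 (unadjusted p = 9.27e-04, edgeR adjusted p = 0.464). The medians of other cells' markers had the opposite sign, at 0.34 for 13 neuron genes, 0.33 for 3 astrocyte genes and 0.82 for 3 microglia genes. The summed neuron list was 2689 ± 1102 CPM in the mature oligodendrocytes of mates and 2004 ± 827 in those of peers. By group its lowest, median and highest were 1825, 2681 and 3858 CPM in female mate, 741, 1844 and 2837 in female peer, 1283, 2341 and 6424 in male mate, and 966, 1834 and 4458 in male peer animals. The part of these other cells' RNA in the list medians was not tested.

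Within each sex, and for the interaction of pairing with sex, 0 genes (0%) were called by edgeR and 0 by DESeq2. At an unadjusted p under 0.05 there were 277 genes within females, 215 within males and 136 for the interaction. In females Ncam2 had the lowest p, with 64.5 CPM (38.6 to 105) in mates and 98.3 CPM (86.8 to 133) in peers, or -0.77 ± 0.18 (SE) on the log2 scale, with 0.435 as its adjusted p by edgeR. Samd12, next by p after ENSMOCG00000010003, had medians of 140 and 228 CPM (edgeR adjusted p = 0.861). In males they were Sem1, a proteasome subunit, with medians of 27.4 and 45.7 CPM, and Ptn, the growth factor pleiotrophin, with 146 and 256 CPM (edgeR adjusted p = 0.999 for both). For the interaction, Frg1 and Chchd3 had log2 values of -1.28 and -0.69 (edgeR adjusted p = 1.00 for both). The unnamed genes ENSMOCG00000010003, of low p in females and the interaction, and ENSMOCG00000000164, of low p in males, had adjusted p of at least 0.861. On counts simulated from these animals, 74.0% of genes changed 1.5-fold for pairing, and all those changed 2-fold or more, were recovered among 6008 genes. There 200 genes, none of the lowest in level, were changed at once, which eases the adjusted threshold. The rate thus does not apply to a change in few genes. Each gene was also drawn on its own, so shifts shared by many genes of an animal were absent. The rate need not hold where such shifts are present. The contrasts within each sex and the interaction were not simulated.

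Sex left a clear mark on 2 genes, 0.0333% of the 6008 tested. Kdm6a and Kdm5c, histone demethylases that are X-linked and escape X inactivation in other mammals, were higher in females. Kdm6a had a median of 694 CPM in female mate (500 to 859), 742 in female peer (590 to 912), 410 in male mate (268 to 662) and 368 in male peer animals (270 to 544). Females exceeded males by 0.85 ± 0.10 (SE) on the log2 scale, with an edgeR adjusted p of 1.11e-07, and all 19 females lay above the mean of the males. Kdm5c had medians of 199 CPM in female mate (154 to 279), 207 in female peer (155 to 288), 125 in male mate (74.7 to 177) and 138 in male peer animals (91.1 to 184). The log2 difference was 0.60 ± 0.09 (SE), with an edgeR adjusted p of 8.49e-05, again with all 19 females above the mean of the males. For both genes the ranges of the sexes overlapped at their edges. Among the 22 mates alone, the log2 differences were 0.72 ± 0.14 (SE) for Kdm6a and 0.61 ± 0.12 (SE) for Kdm5c, with edgeR adjusted p of 0.0746 and 0.0764, so neither was called there. Ddx3x, another such gene, had a log2 difference of 0.24 ± 0.13 (SE), with an edgeR adjusted p of 1.00.

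**Figure D4:**
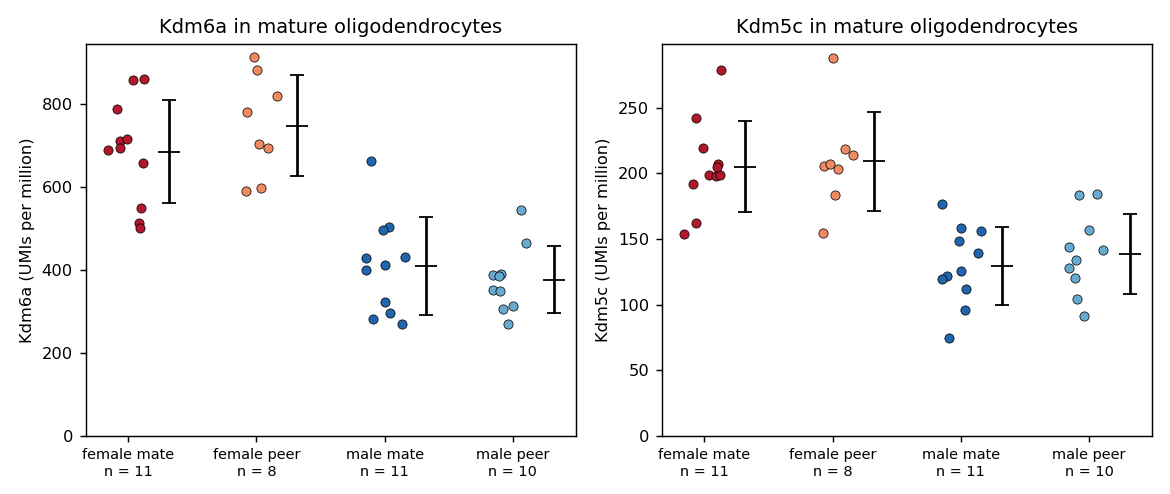
Kdm6a (left) and Kdm5c (right) in mature oligodendrocytes, in CPM, for each animal (points) by group, with the group mean and SD (black bars). All 19 females lie above the mean of the males in both.

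The sex differences were set against those in the other nuclei of the same animals for the 2 called genes, which were thus chosen for their difference in mature oligodendrocytes. For Kdm6a, on the log2 scale with 5 CPM added, females exceeded males by 0.88 in mature oligodendrocytes and by 0.47 in the rest, a difference of 0.41 (permutation p = 8.00e-05, adjusted 1.60e-04 over 2 genes). With Ddx3x added, which was not called, the adjusted p over 3 genes was 2.40e-04. Kdm6a was also the more abundant there, at 544 CPM against 237 CPM. For Kdm5c the 2 differences were 0.62 and 0.53, and 0.10 apart (permutation p = 0.272, adjusted 0.272). Ddx3x had 0.32 and 0.31, and 0.01 apart (permutation p = 0.961).

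Animals of the same group differed widely in some genes. Sgk1, a kinase induced by glucocorticoids and osmotic stress, had a UMI in 56.8% of thinned mature oligodendrocytes and in 6.43% of microglia. It ran from 430 CPM (male mate 2) to 4544 CPM (female peer 1). Its medians were 1871 CPM in female mate, 3092 in female peer, 1726 in male mate and 1930 in male peer animals, with overlapping ranges and mates minus peers was -0.52 ± 0.20 (SE) on the log2 scale, with an edgeR adjusted p of 0.658.

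Other stress-responsive genes varied with Sgk1 over the animals. Of 8 glucocorticoid-responsive genes with at least 20 CPM, 5 correlated with it at an adjusted permutation p under 0.05 for both r and rho. Of the 7569 genes of that level other than Sgk1, 67 (0.885%) had r and rho at least as high as the lowest of these 5. Nfkbia, the NF-kB inhibitor, had r = 0.719 and rho = 0.744 (permutation p adjusted 4.00e-05 and 8.00e-05). Errfi1, an inhibitor of EGF receptors, had r = 0.712 and rho = 0.587, and Pdk4, a mitochondrial kinase, r = 0.617 and rho = 0.539. Cdkn1a, a cell cycle inhibitor, had r = 0.532 and rho = 0.505, and Klf9 r = 0.444 and rho = 0.412. For these 5 the adjusted permutation p was at most 0.00642 for r and 0.0134 for rho, over 8 relations. Without female mate 2 and male mate 2, the animals farthest from the median of Sgk1, r was 0.819 for Nfkbia, 0.588 for Errfi1, 0.526 for Pdk4, 0.398 for Cdkn1a and 0.454 for Klf9. Within groups the r of Nfkbia ran from 0.381 to 0.976. Fkbp5, the best known glucocorticoid target, had r = -0.161, Per1 r = -0.138 and Zbtb16 r = 0.252, and none of these passed. Sgk1 was chosen for its spread after the values were seen.

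By rank correlation with Sgk1 over 40 animals, the likest of 4636 genes with at least 50 CPM were Ddit4, an inhibitor of mTOR signalling (rho = 0.809), Strn (0.798), and Tob1 and Tob2 (0.752 each), with Bcl2l1, an inhibitor of apoptosis, at 0.750. They were selected for this, so no test is given. Sgk1 had rho of -0.0146 with the mitochondrial share, -0.375 with the neuron list, 0.221 with the depth of the mature oligodendrocytes and 0.418 with their share of nuclei. The level of Ddit4 in mature oligodendrocytes also varied with that in astrocytes (rho = 0.804) and microglia (rho = 0.738) of the same libraries, and the same values for Sgk1 were 0.528 and 0.475.

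**Figure D5:**
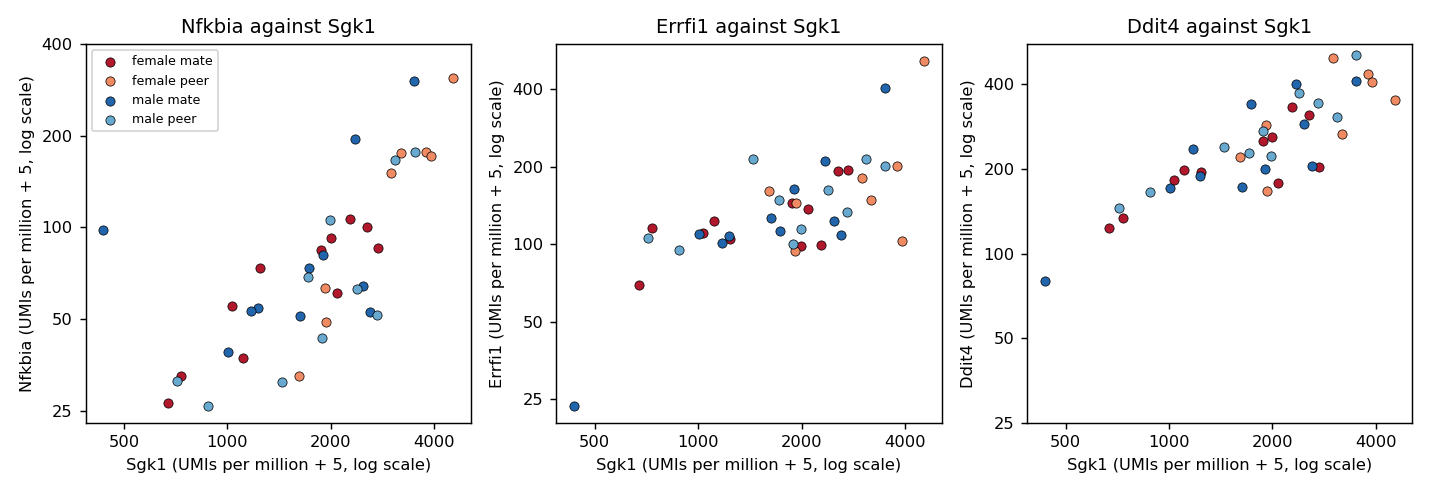
Nfkbia, Errfi1 and Ddit4 against Sgk1 in mature oligodendrocytes, in CPM plus 5 on log axes, for each animal (points, coloured by group). Sgk1 spans 430 to 4544 CPM and each group spreads along the relation.

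The genes with the largest dispersion between animals, beyond what group and counting noise gave, were Abca9 (2.14), S100a6 (0.964), Dcst1 (0.845), Postn (0.777), Npy, Gpr17, Cfap54, Csmd1, Sst and Scd1. Postn, a matrix protein, stood at 2.93 CPM in other nuclei and ran from 5.26 CPM (female mate 9) to 430 CPM (female mate 2) in mature oligodendrocytes. Dcst1 ran from 5.26 to 825 CPM. Abca9, a lipid transporter, ran from 0 to 392 CPM, with 130 CPM in microglia. The neuropeptide genes Npy and Sst were lower than in the other nuclei on average, at 86.4 against 199 CPM and 186 against 366 CPM.

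Cryab, a small heat shock protein, stood at 1822 ± 888 CPM and ran from 553 CPM (male mate 3) to 5636 CPM (male mate 9), above the next animal at 3296 CPM. Over the animals it had rho = 0.539 with the mitochondrial share of mature oligodendrocytes. Within nuclei, Cryab was found in 55.5% of those with a UMI of the mitochondrial gene ND1 and in 41.4% of those without, higher in 36 of 40 animals. The part of mitochondrial RNA in the level of Cryab was not tested. Hspa8 and Hsp90ab1, chaperones of most cells, stood at 1909 ± 525 and 944 ± 344 CPM, near the 1570 and 856 CPM of other nuclei. Immediate early genes were low, with Egr1 at 42.5 CPM against 243 and Fos at 5.94 against 52.0.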

How the data were processed

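Per the labels, nuclei of each animal were isolated separately, and the authors deposited raw UMI counts per gene and barcode, made with Cell Ranger 3.1.0 per the submitters' processing notes. Settings, genome build and annotation are not given in the sources used here. The 40 libraries hold 194518 barcodes and 353673015 UMIs over 19130 genes. Left out were 6375 barcodes under 500 UMIs, all of male mate 2, and 2148 with over 5% of their UMIs from the 13 mitochondrial genes. Doublets were called by simulation within each library at a rate assumed to grow with its barcodes (7608, 4.09%) and kept, except in an alternative and in co-detection. Comparison classes were chosen by markers in the same way: 4850 precursors, 16017 astrocytes, 4244 microglia and 51102 spiny neurons. The markers of the precursors were Pdgfra, Cspg4, Ptprz1 and Lhfpl3.

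Counts were summed per animal and tested in edgeR 4.0.16 (R 4.3.3; quasi-likelihood, TMM, filterByExpr, 1 mean per group, Benjamini-Hochberg adjustment). DESeq2 1.42.0 was an alternative. Measures per animal were compared by two-sided permutation with 100000 resamples within the other factor, for which 1.00e-05 is the smallest p, or by exact enumeration within sex. Correlations used log2(CPM + 5). Co-detection covered genes in at least 150 nuclei. The tests were tried on simulated counts. The labels name separate animals, and animals sharing a cage cannot be linked.

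The nuclei and gene lists were chosen with earlier results of these data known. Named genes were those called, up to 10 per direction, or the 3 of lowest p, Kdm5c, Kdm6a and Ddx3x, the 4 highest per list, the 15 highest in CPM, the 15 of largest ratio to other nuclei and the 10 of largest dispersion; others were named after their values were seen. Of 227 listed genes, 203 were used and the rest were not analysed here. Some genes that this rule names are not reported here. CPM is a share of UMIs and is not scaled by gene length.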

Additional observations from a re-analysis of the deposited data

Results flagged for a closer look

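In the peer groups, which are small enough for this check, a single animal lay far from the rest of its group in 9 of 102 sets of values. For normally distributed values, chance alone gives such a gap in about 1 of 20 sets. Values from few UMIs need not be so distributed, so the rate is only a guide here. It does not apply at all to the 20 sets of genes named for their large dispersion between animals. These held 4 of the 9 (Sst, Gpr17, Dcst1 and Postn), and the other 82 sets held 5, near 1 of 20. Male peer 6 held 3 of the 9. Its mature oligodendrocytes had a summed neuron list of 4458 CPM, with 2643 CPM in the next animal. They had Sst at 751 CPM, with 371 CPM next, and Gpr17 at 389 CPM, with 98.0 CPM next. Female peer 1 held 2 more, Errfi1 at 510 CPM from 47 UMIs, with 197 CPM next, and ENSMOCG00000010003 at 65.1 CPM from 6 UMIs, with 23.0 CPM next. Dcst1 stood at 343 CPM in female peer 8 and at 89.9 CPM in the next animal. Postn stood at 427 CPM in female peer 4 and at 115 CPM in the next. Ddx3x stood at 250 CPM in male peer 5 and at 159 CPM in the next, and Pdk4 at 228 CPM in male peer 9 and at 113 CPM in the next.

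Barcodes that were left out also held myelin markers. Of the 6375 barcodes under 500 UMIs in male mate 2, 376 (5.90%) met the marker conditions, and of the 2148 barcodes over 5% mitochondrial UMIs, 259 (12.1%) did.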

How the results depend on the processing

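The absence of called genes for pairing held under all 9 alternatives, and Kdm6a and Kdm5c were called for sex in each of these 9, at log2 fold changes of 0.83 to 0.86 and 0.58 to 0.62. With the running numbers of the labels as blocks of 10, the lowest adjusted p for pairing was 0.0562. Without a filter on low counts, 4 genes were called for sex (Tmc1 and Vip added) and 1 for pairing within females, ENSMOCG00000005084. The share of mature oligodendrocytes stayed lower in mates under every alternative, from -0.489 points without male mate 2 to -1.24 among nuclei without Slc17a7, and no alternative passed the threshold. Its interaction ran from -0.249 without male peer 1 to -1.11 without male mate 2. The sex difference of the log2 ratio to precursors, -0.02, turned to 0.02 on thinned nuclei and to 0.03 without male mate 2, with none past the threshold. The sex difference of the share ran from 0.136 without male mate 2 to 0.525 without the condition on the 6 genes. Alternatives without male peer 1 and those for Ptgds and Sgk1 were added after seeing the data; without called doublets Zbtb16 joined the 5 genes correlated with Sgk1. No animal had under 50 nuclei, so that alternative equals the main result. Depth limits low genes: the animal with the fewest UMIs held 38290 in these nuclei. The labels name no partners and no replicate numbers. Each mate female stands beside a mate male in their running numbers, and each peer beside a peer of the same sex. In a fit added after seeing the data the mate neighbours were used as blocks. Over the 11 pairs of mate neighbours, the deviations had a median r of 0.0244, from -0.233 to 0.279. Other pairs of a mate female and a mate male had a median r of -0.00130. Partners need not be alike in expression, so this cannot show whether neighbours shared a cage. The tests outside this fit treat the animals as independent, and an effect of a shared cage was not tested. Among the 22 mates alone, 0 genes were called for sex by edgeR without these blocks (125 at an unadjusted p under 0.05) and 0 with them (140). Kdm6a had a log2 difference of 0.72 (adjusted p = 0.0746) and 0.74 (0.119), and Kdm5c 0.61 (0.0764) and 0.61 (0.455).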
